A study of Mus musculus with 12 samples.

Results

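Chromatin accessibility around 6 regulators of mesendoderm, Mixl1, Gsc, Lhx1, Tbx6, Mesp1 and Mesp2, was described from a list of accessible regions in mouse embryonic stem (ES) cells. The members were the regions that touch one of the 6 gene bodies or the 50 kb to either side of it, in the GENCODE annotation of the mm10 (GRCm38) genome. Of 170548 regions in the list, 65 met this rule. The libraries of the series came from ATAC-seq, in which the Tn5 transposase inserts sequencing adapters into open DNA. They were made from 2 mouse ES cell lines, and the study asked how OCT4 and SOX2 keep chromatin open.

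In ZHBTc4 cells the only source of OCT4 is a Tet-Off transgene, and in 2TS22C cells the same holds for SOX2, so that doxycycline (dox) turns the factor off in both. The 6 groups had 2 libraries each, 12 in all. ZHBTc4 cells were left untreated (OCT4 ON) or given dox at 1 µg/ml for 24 hr (OCT4 OFF). 2TS22C cells were left untreated (SOX2 ON) or given dox at 1 µg/ml (SOX2 OFF), with libraries of both kinds at 26 hr and at 40 hr. All cells grew in serum with LIF, a GSK3 inhibitor and a MEK inhibitor. Both lines express the factor from a transgene rather than from the endogenous gene, and the study describes residual SOX2 protein at the earlier SOX2 OFF time.

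The list gives a start and an end for each region, merged over the ATAC-seq experiments of both lines, with 0 columns that hold a value for a single library. No height, depth, replicate spread or dox contrast could be taken from it, and a region in the list cannot be assigned to a group. Every result below is therefore a description without a test. The genes were chosen as mostly silent but poised in ES cells, and since the list holds neither RNA nor histone marks, that state could not be checked here.

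Mesendoderm is the common progenitor of mesoderm and endoderm, and it forms in the primitive streak at gastrulation. Nodal signalling acts there through SMAD proteins with FOXH1, WNT signalling through TCF/LEF factors, and T-box factors carry the mesodermal programme forward. Mixl1 and Gsc encode homeodomain proteins of the streak and the organizer, and Lhx1 a LIM homeodomain protein of the organizer and the axial and intermediate mesoderm. Tbx6 encodes a T-box factor of the presomitic mesoderm. Mesp1 and Mesp2 encode basic helix-loop-helix factors, the first known for the cardiac lineage and the second for the segmentation of somites.

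To show what the DNA in front of these genes looks like, the RefSeq promoter sequence (GRCm38.p6) is given for 5 of the 6 genes. Mixl1 had no entry. Only bases upstream of both the RefSeq and the GENCODE TSS are printed, 5′ to 3′ in the direction of transcription, and capitals mark CpG dinucleotides.
Gsc (chr12:104473331-104473486, minus strand): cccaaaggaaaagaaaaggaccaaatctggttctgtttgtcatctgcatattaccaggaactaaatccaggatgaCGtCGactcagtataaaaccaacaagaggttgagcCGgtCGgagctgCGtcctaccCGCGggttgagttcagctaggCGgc
Lhx1 (chr11:84525536-84525784, minus strand): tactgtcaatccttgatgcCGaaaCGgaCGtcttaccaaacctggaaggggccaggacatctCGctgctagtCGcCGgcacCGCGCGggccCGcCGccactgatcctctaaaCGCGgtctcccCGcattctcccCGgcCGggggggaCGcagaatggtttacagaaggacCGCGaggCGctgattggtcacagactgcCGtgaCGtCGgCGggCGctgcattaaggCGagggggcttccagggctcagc
Tbx6 (chr7:126781233-126781482, plus strand): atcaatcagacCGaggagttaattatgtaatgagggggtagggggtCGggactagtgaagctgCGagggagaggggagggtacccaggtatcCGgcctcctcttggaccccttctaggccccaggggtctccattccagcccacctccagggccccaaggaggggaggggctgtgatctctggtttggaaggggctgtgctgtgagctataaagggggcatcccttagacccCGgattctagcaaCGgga
Mesp1 (chr7:79793789-79793840, minus strand): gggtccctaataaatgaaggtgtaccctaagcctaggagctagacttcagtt
Mesp2 (chr7:79810477-79810726, plus strand): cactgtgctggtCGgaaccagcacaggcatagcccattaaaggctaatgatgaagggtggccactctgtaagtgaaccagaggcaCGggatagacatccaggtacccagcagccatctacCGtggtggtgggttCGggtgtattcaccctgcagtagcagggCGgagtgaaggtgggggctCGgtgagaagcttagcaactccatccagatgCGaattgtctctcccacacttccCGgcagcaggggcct
The Lhx1 stretch held 26 CpGs in 249 bases, and all of it lay inside an accessible region. The Gsc stretch held 8 CpGs in 156 bases, of which 45.5% lay in a region, and the Mesp2 stretch 8 in 250, of which 26.8% did. The Tbx6 stretch held 6 CpGs in 250 bases and the Mesp1 stretch 0 in 52, and no base of either lay in a region. Over the whole 250 bases before each RefSeq TSS, the CpG number stood at percentile 90.9 for Lhx1, 85.9 for Gsc, 58.4 for Mesp2, 51.7 for Tbx6 and 23.9 for Mesp1 among 32817 mouse promoters, whose median was 6. The RefSeq and GENCODE TSSs are 198 bp apart for Mesp1 and 94 bp apart for Gsc, so that what counts as promoter depends on the annotation in these 2 genes. Of the 7 motifs searched, these 5 promoters held only a TCF/LEF and a CTCF match, both in Mesp1, beside 3.21% and 5.07% of all promoters.

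Motif letters were searched on both strands: FOXH1 as TGTGGATT or TGTGTATT, TCF/LEF as CTTTGAT, T-box as AGGTGTGA and SOX as CCATTGTT, each with 0 mismatches. The exact matches to these letters inside the TSS regions of Mesp1, Mesp2 and Tbx6 are shown in 30 bases each, on the strand of the gene. FOXH1, TCF/LEF and T-box letters belong to the signals known to act in the streak, and SOX letters to the family of SOX2. Matches to the other motifs searched, and those in the Mixl1 region, are not printed here. Capitals mark the match, in either orientation.
Mesp1 TCF/LEF (chr7:79793604-79793633): ggctcgagccggCTTTGATatgctgatgaa
Mesp1 T-box (chr7:79793567-79793596): aggggcccgctTCACACCTagggctcagga
Mesp2 FOXH1 (chr7:79810740-79810769): cgaggggtcagAATCCACAcctctgcaaat
Mesp2 T-box (chr7:79810847-79810876): aggggaccaccTCACACCTttagtccagat
Tbx6 TCF/LEF (chr7:126780082-126780111): tcaaccacatgATCAAAGacaacggctggg
Tbx6 SOX (chr7:126780486-126780515): gtaaataataaAACAATGGaatggagacag
Mesp1 and Mesp2 each held 1 T-box match, both in the noncoding start of exon 1, at 207 bp and 134 bp downstream of the GENCODE TSS. The Mesp1 TCF/LEF match lay 170 bp downstream of the GENCODE TSS and 25 bases upstream of the RefSeq TSS. The Mesp2 FOXH1 match lay 27 bp into exon 1. Both Tbx6 matches lay far from the TSS, at 983 bp and 1387 bp upstream, in the last exon of the neighbouring gene Ypel3.

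Every one of the 6 genes had a region within 1 kb of a TSS, measured to the nearest edge. The same held for 16381 of 21938 protein-coding genes, 74.7%. In 4 of the 6 genes, Mixl1, Gsc, Lhx1 and Mesp2, the region overlapped the 5′ end of the gene, as it did in 61.6% of protein-coding genes. Both counts are small, and 6 of 6 against this background does not set the members apart.

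**Figure D1:**
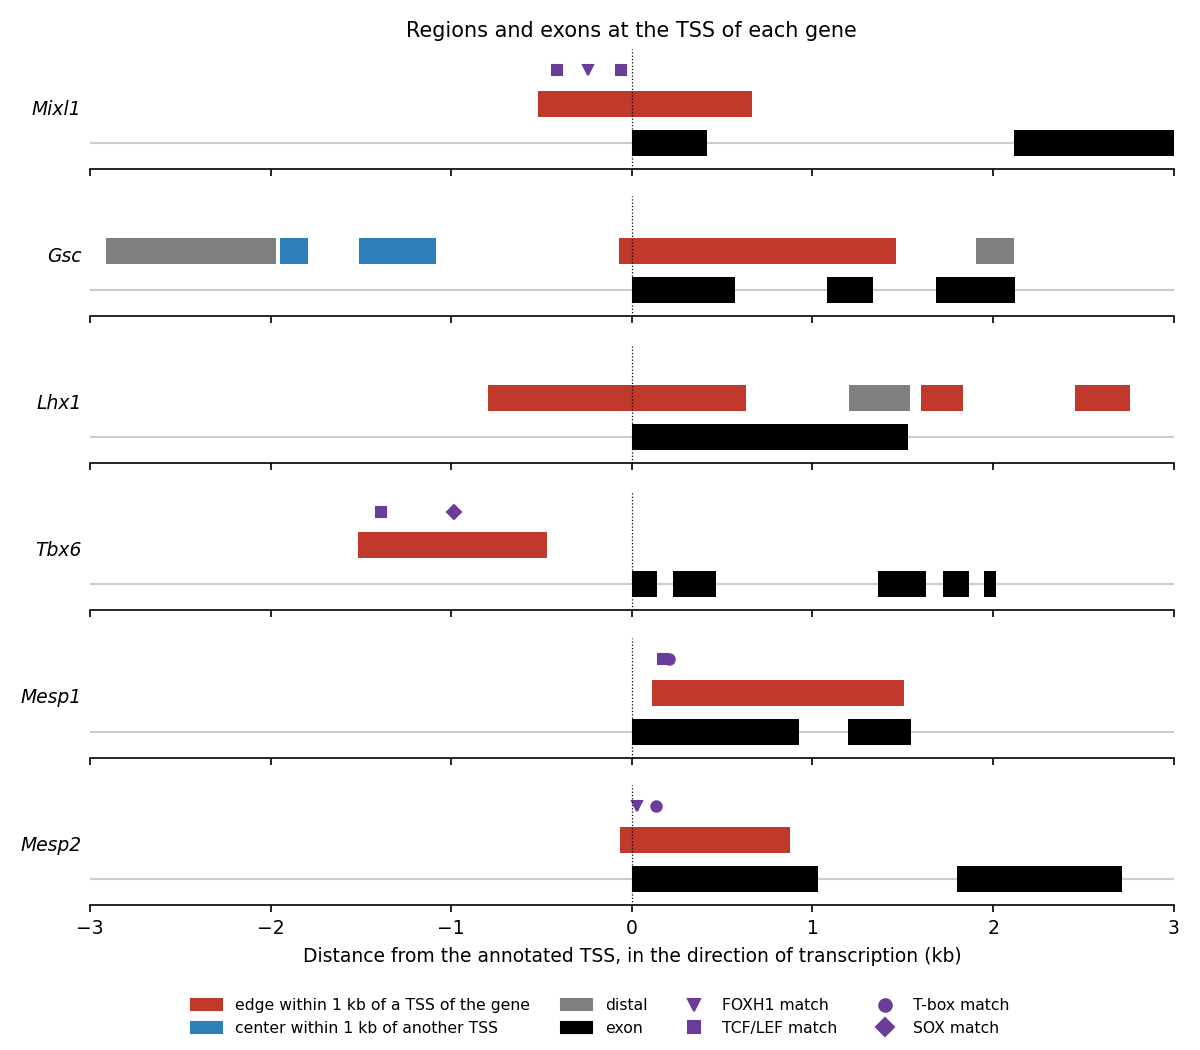
Accessible regions (upper bars) and exons (black) within 3 kb of the GENCODE TSS of each gene, drawn in the direction of transcription on an axis in kb. Symbols mark exact FOXH1, TCF/LEF, T-box and SOX matches in the TSS region, and other motifs are not drawn. The region covers the TSS in Mixl1, Gsc, Lhx1 and Mesp2, starts 114 bp inside Mesp1 and ends 467 bp before Tbx6.

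The 6 TSS regions were placed differently on their genes. Mixl1 (chr1:180693043-180697034, minus strand) had a region of 1188 bp at chr1:180696366-180697553. It reached 519 bp upstream and 668 bp downstream of the TSS and covered 100% of exon 1 and none of exon 2. Lhx1 (chr11:84518284-84525535, minus strand) had a similar placement, with 1426 bp at chr11:84524905-84526330, 795 bp upstream and 630 bp downstream. This region also took in the start of the antisense gene Lhx1os.

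The Gsc region lay almost wholly on the gene. Gsc (chr12:104471209-104473330, minus strand) had 1536 bp at chr12:104471866-104473401, the widest region in the 6 windows, of which 71 bp lay upstream of the TSS and 1464 bp downstream. It covered 100% of exons 1 and 2. A second region of 208 bp lay in exon 3, so that 78.8% of the gene body was in a region. Gm10000, a noncoding RNA gene, starts at the neighbouring base on the other strand and shares the Gsc region.

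The Mesp1 and Mesp2 regions lay on the gene bodies as well. Mesp1 (chr7:79792241-79793788, minus strand) had 1393 bp at chr7:79792282-79793674, which began 114 bp inside the gene as GENCODE gives it and covered 90.0% of the body. The RefSeq TSS, at chr7:79793590, fell inside this region. Mesp2 (chr7:79810727-79813439, plus strand) had 946 bp at chr7:79810660-79811605, with 67 bp upstream and 878 bp downstream of the TSS. It covered 85.1% of exon 1, none of exon 2 and 32.4% of the body.

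Tbx6 stood apart from the other 5 genes. Tbx6 (chr7:126781483-126785560, plus strand) had 1052 bp at chr7:126779965-126781016, which ended 467 bp before the TSS. No region overlapped any of its 8 exons or its body. No region over the body was also the case for 4189 of 21938 protein-coding genes, 19.1%. The center of the region lay 993 bp from the Tbx6 TSS, in the last exon of Ypel3.

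Coverage of the body was high for the other members. Against a median of 5.35% over all protein-coding genes, it stood at percentile 99.5 in Mesp1, 99.2 in Gsc, 95.8 in Mesp2 with 32.4%, 95.8 in Lhx1 with 32.2% and 88.1 in Mixl1 with 16.8%. All 6 genes are short, from 1548 bp for Mesp1 to 7252 bp for Lhx1, where the median protein-coding gene spans 17425 bp. A TSS region of usual width takes a larger share of a short gene, and the part of length in these percentiles was not tested.

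The widths of the TSS regions were not unusual. They were 946 bp in Mesp2, 1052 bp in Tbx6, 1188 bp in Mixl1, 1393 bp in Mesp1, 1426 bp in Lhx1 and 1536 bp in Gsc. The median over the 16381 genes with such a region was 1110 bp, with quartiles of 850 and 1386 bp. Mesp2 and Tbx6, at percentiles 32.9 and 43.7, lay below that median, and the other 4 lay between percentile 58.1 for Mixl1 and 83.9 for Gsc.

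CpG content of the TSS region separated Tbx6 from the rest. The ratio of observed to expected CpGs was 0.902 in the Gsc region, 0.831 in Lhx1, 0.774 in Mixl1, 0.729 in Mesp1 and 0.697 in Mesp2, but 0.297 in Tbx6. The median over all TSS regions was 0.700. Gsc stood at percentile 91.5 and Tbx6 at 8.15. A region was called CpG-rich with a ratio of at least 0.6 and a GC content of at least 50%, which 5 of the 6 TSS regions met, beside 67.6% of the TSS regions of protein-coding genes. That count is near the background. The Tbx6 value is that of a region that lay in Ypel3 and did not reach its gene. Over the 250 bases before the RefSeq TSS, Tbx6 was low as well, with a ratio of 0.281, but not apart. There the ratio was 0.105 for Mesp1, 0.389 for Mesp2, 0.991 for Lhx1 and 1.06 for Gsc.

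**Figure D2:**
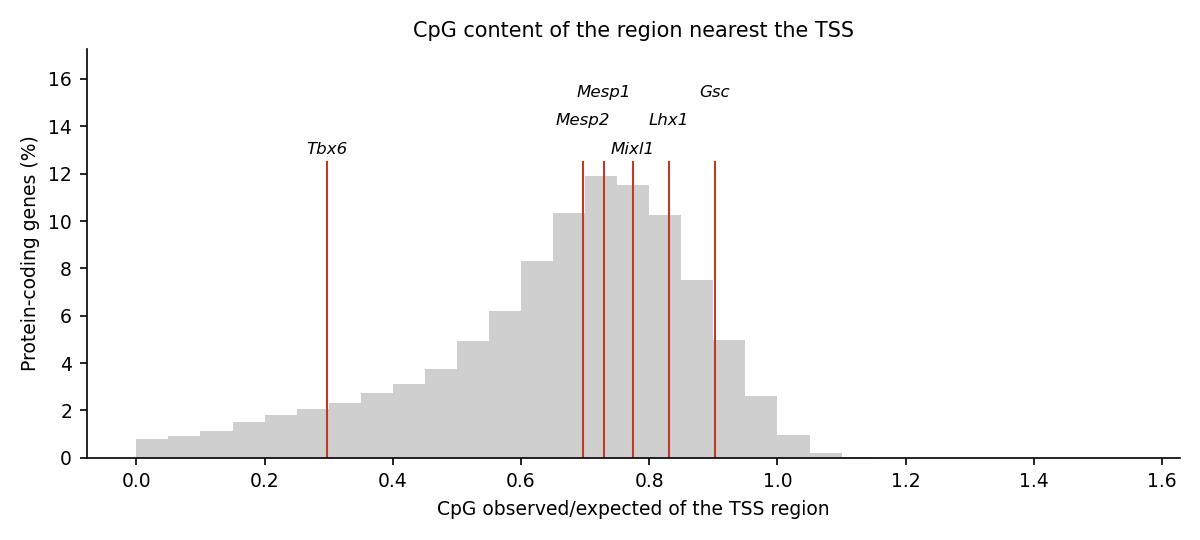
Ratio of observed to expected CpGs of the region nearest the TSS. Bars give the percentage of 16381 protein-coding genes in bins of the ratio and red lines mark the 6 genes, with Tbx6 at 0.297 and the others between 0.697 and 0.902.

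Gsc and Lhx1 had more than 1 region close to their starts. Within 3 kb of the 5′ end, Gsc had 5 regions and Lhx1 had 4, whereas Mixl1, Tbx6, Mesp1 and Mesp2 had 1 each. The median over protein-coding genes was 1, and 205 of 21938 genes, 0.934%, had at least 4. The distance and the number were chosen after the values were seen, so this rarity is a description only. With regions less than 100 bp apart joined, Gsc had 4, a number that 0.711% of genes reached, and Lhx1 had 3, which 4.55% reached.

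The Gsc group continued upstream of the TSS over the noncoding gene Gm10000, with regions of 428, 157 and 946 bp whose centers lay 1.30, 1.87 and 2.44 kb upstream. The centers of the 428 and 157 bp regions were 138 and 713 bp from a further annotated TSS of Gm10000. In Lhx1 the group ran downstream into the gene. Regions of 339, 232 and 306 bp lay in exon 1 and the introns, 1.37, 1.72 and 2.61 kb from the 5′ end of the gene. Another of 826 bp reached into exons 4 and 5 at 5.48 kb. Of these, the 306 bp and 826 bp regions were CpG-rich. Lhx1 has 4 annotated transcripts, and the center of the 306 bp region lay 217 bp from a further TSS of the gene. The edge of the 232 bp region was within 1 kb of an Lhx1 TSS as well.

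The space beyond the TSS regions also differed. The next region upstream of Lhx1 lay 36.5 kb away, at percentile 94.0 of the same gap over protein-coding genes, whose median was 7.10 kb, and the next downstream only 0.571 kb away. Mixl1 was isolated on both sides, with 22.7 kb upstream, percentile 87, and 15 kb downstream, percentile 76.9. Gsc had neighbours at 1.01 kb and 0.442 kb, percentiles 9.23 and 5.55. The gaps of Mesp1 were 5.27 and 5.59 kb, those of Mesp2 10.8 and 6.70 kb and those of Tbx6 2.77 and 10.8 kb.

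**Figure D3:**
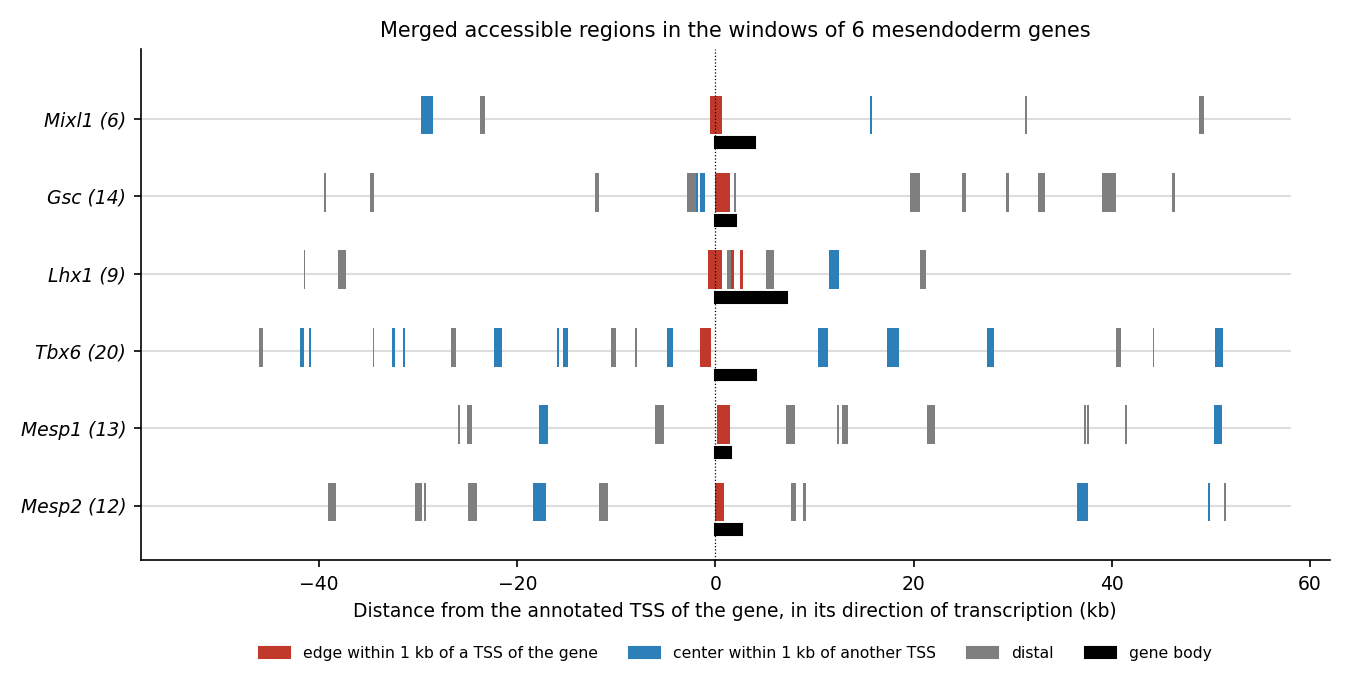
Positions of all regions in the windows of the 6 genes, in kb from the TSS along the direction of transcription, with the number of regions beside each name. Red bars have an edge within 1 kb of a TSS of the gene, blue bars have their center within 1 kb of another TSS, grey bars are distal and black bars are gene bodies. The 36.5 kb free of regions upstream of Lhx1 and the 20 regions around Tbx6 are visible.

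Counts per window ran from 6 to 20. Mixl1 had 6 regions, Lhx1 9, Mesp2 12, Mesp1 13, Gsc 14 and Tbx6 20. The median over all 21938 protein-coding genes, with windows drawn in the same way, was 14, with quartiles of 8 and 20. Only Tbx6 lay above that median, at percentile 74.9, and Mixl1 lay lowest, at 18.6. The other 4 lay at 29.1 for Lhx1, 41.5 for Mesp2, 45.7 for Mesp1 and 50.1 for Gsc. By bp covered per kb of window in place of the number of regions, all 6 percentiles were higher, with Tbx6 at percentile 85.7, Gsc at 73.2, Mesp1 at 71.5, Mesp2 at 71.3, Lhx1 at 47.8 and Mixl1 at 31.3. The 50 kb limit fell in gaps between regions. The last region inside a window lay between 13.4 and 48.7 kb from the gene body, and the first one outside between 50.9 and 63.1 kb.

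**Figure D4:**
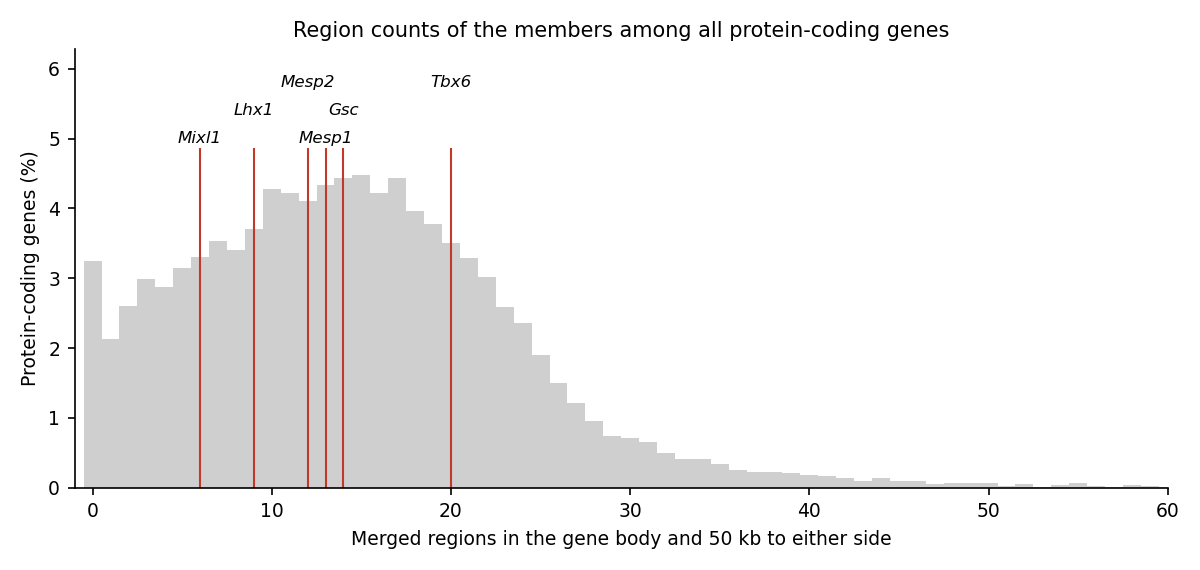
Number of regions in the gene body and 50 kb to either side. Bars give the percentage of 21938 protein-coding genes with each count up to 60 and red lines mark the 6 genes, from 6 in Mixl1 to 20 in Tbx6.

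Each window also holds the starts of neighbouring genes, which were counted beside its regions. The Tbx6 window contained 9 starts of protein-coding genes as the annotation enters them, with Aldoa entered more than once. The Gsc window contained 1, its own, and those of Mixl1 and Lhx1 2 each. Among 388 genes with as many starts as Tbx6, its count stood at percentile 58.9, and among 3911 genes that are alone in their window, the count of Gsc stood at percentile 63.9. Mixl1 remained low, at 18.9, and Lhx1 at 31.9.

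In the Tbx6 window, 14 of 20 regions lay within 1 kb of a TSS of another gene, measured to the nearest edge rather than the center. These genes were Mapk3, which encodes the kinase ERK1, Gdpd3, Ypel3, Ppp4c, a phosphatase catalytic subunit, Aldoa, a glycolytic enzyme, Fam57b, Gm9967, Gm44855, 4930448A20Rik and 4930451I11Rik. Only 1 of the 20 had Tbx6 as its nearest protein-coding gene. By contrast 12 of the 14 Gsc regions and 7 of the 9 Lhx1 regions were nearest to the member gene. Mixl1, with Lin9, Gm8101 and Acbd3 as neighbours, was nearest to 1 of 6, and Mesp2, beside Anpep, to 1 of 12.

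Mesp1 and Mesp2 lie head to head and share much of their surroundings. Their TSSs are 16.9 kb apart on opposite strands, and 1 region of 903 bp lay between them, 5.61 kb upstream of Mesp1. Of the 16 regions in either window, 9 were in both. Mesp1 was the nearest protein-coding gene of 6 regions, among them 4 distal ones of 848, 628, 130 and 908 bp that lay 21.8 to 7.55 kb downstream of its TSS, in introns of Wdr93 or at its edge. The 908 bp region was the widest distal one in both windows. Further regions lay at the starts of Pex11a, a peroxisomal gene, with Wdr93, and of Anpep, which encodes an aminopeptidase.

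Of the 65 regions, 38 were distal, with the center more than 1 kb from every annotated TSS, and 27 were promoter-proximal. The distal share was 58.5% (95% Wilson interval 46.3 to 69.6%, counting error only) beside 82.7% of all regions in the list. For windows drawn around genes in the same way, the median over the 21227 protein-coding genes with a region was 75%. Gsc with 78.6% and Mesp1 with 76.9% were near that median, Lhx1 and Mesp2 had 66.7% each, Mixl1 50.0% and Tbx6 35.0%. Without the crowded Tbx6 window, 31 of 45 regions or 68.9% were distal (54.3 to 80.5%).

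By width, the regions in the windows had a median of 481 bp, quartiles of 244 and 887 bp and a range of 130 to 1536 bp, beside a median of 379 bp over the list. Within each class the difference was smaller. The distal regions had a median of 402 bp beside 344 bp, and the proximal ones 753 bp beside 757 bp. The number at least 1 kb wide was 11 of 65, 16.9%, beside 9.83% in the list. By class it was 10 of 27 proximal regions, 37.0% beside 34.8%, and 1 of 38 distal ones, 2.63% beside 4.62%.

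**Figure D5:**
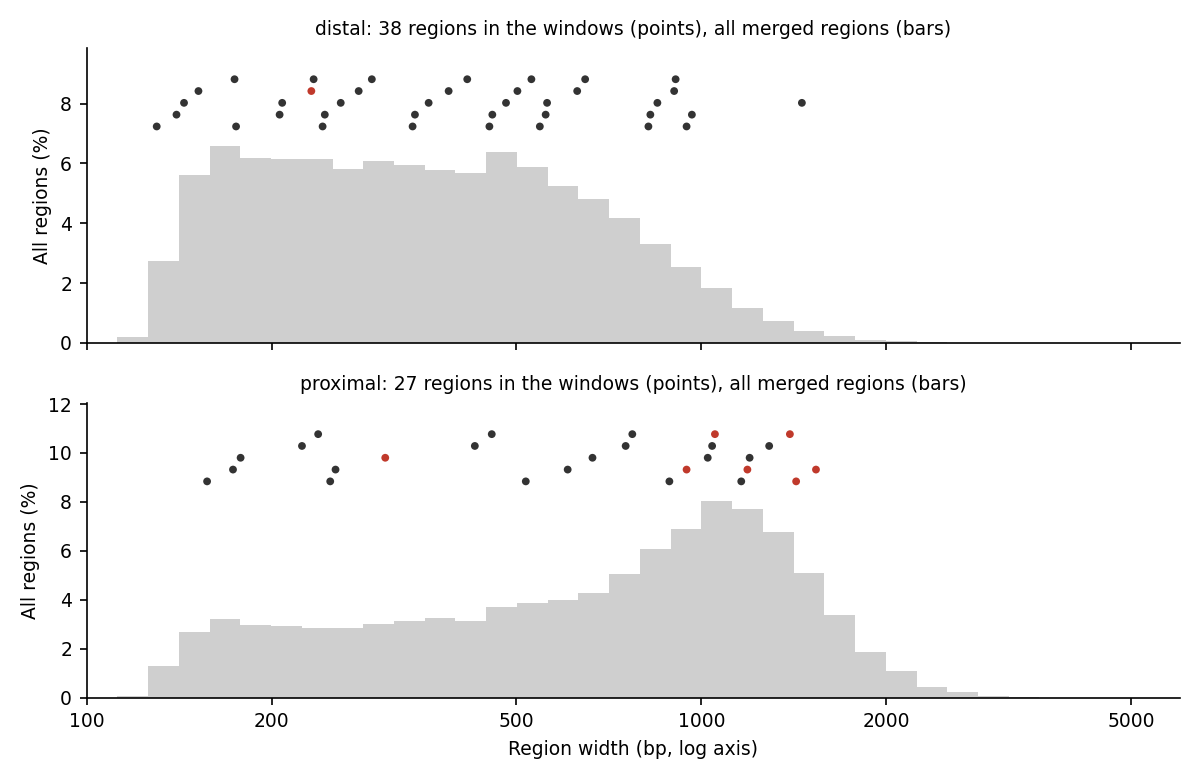
Widths of the 38 distal and 27 proximal regions in the windows (points, set at several heights only to keep them apart) above the distribution of all distal and proximal regions in the list (bars, percent). The width axis is logarithmic, and red points lie within 1 kb of a TSS of one of the 6 genes.

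The widest distal region, of 1457 bp at chr12:104432878-104434334, lay 39.7 kb downstream of Gsc in intergenic DNA. It held a FOXH1 match outside its central 200 bp, and over whole regions 4 of 65 held one, beside 3.51% of the list. It was 1 of 6 distal regions that lay 20.1 to 46.2 kb downstream of this gene, the other five being 342, 647, 291, 388 and 965 bp wide, with none of them inside an annotated gene. The widest distal regions elsewhere were 502 bp in the Mixl1 window, 826 bp in that of Lhx1, inside the gene, and 546 bp in that of Tbx6. The 19 distal regions whose nearest protein-coding gene was a member had a median width of 452 bp, and the 19 nearest to another gene 342 bp.

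CpG-rich sequence was a feature of the proximal regions. It was present in 15 of the 27 proximal regions, 55.6%, beside 40.2% of proximal regions in the list. In the distal regions it was present in 2 of 38, 5.26%, beside 3.05%, and both lay in gene bodies of members, the 208 bp region in exon 3 of Gsc and the 826 bp region in Lhx1. The 232 bp region in Lhx1 fell just short on GC content, at 49.6%. Over 50% of the sequence was repeat-masked in 3 of 65 regions, 4.62%, beside 16.8% of the list. By class this was 1 of 38 distal regions, 2.63% beside 19.4%, and 2 of 27 proximal ones, 7.41% beside 4.12%.

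Since OCT4 and SOX2 are the factors removed in the study, the central 200 bp of each region was searched for their letters. The sequences that held the OCT4::SOX2 composite or a SOX match away from a TSS of the 6 genes are shown together with the distal FOXH1 match near Mixl1, on the plus strand of GRCm38 with the match in capitals.
Gsc upstream, composite (chr12:104475123-104475279): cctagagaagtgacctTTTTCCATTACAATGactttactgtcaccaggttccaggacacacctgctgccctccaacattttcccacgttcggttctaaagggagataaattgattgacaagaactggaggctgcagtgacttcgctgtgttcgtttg
Mesp1 downstream, SOX (chr7:79781359-79781488): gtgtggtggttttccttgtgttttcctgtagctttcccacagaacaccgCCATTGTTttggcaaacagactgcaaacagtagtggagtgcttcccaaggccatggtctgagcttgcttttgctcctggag
Mixl1 downstream, FOXH1 (chr1:180647885-180648084): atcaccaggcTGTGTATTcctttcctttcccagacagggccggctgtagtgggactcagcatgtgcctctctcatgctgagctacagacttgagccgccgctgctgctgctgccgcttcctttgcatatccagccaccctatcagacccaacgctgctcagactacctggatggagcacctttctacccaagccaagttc
The composite was searched as CATTGT, 1 base of any kind and then ATGCAAAT, with at most 2 mismatches over its 14 fixed letters. It was found in 1 of 65 regions, beside 0.572% of the list, with 2 mismatches. That region, 157 bp wide, was the middle one of the 3 upstream of Gsc, in the exon of Gm10000. With at most 1 mismatch no region in the windows held it, where 86 of 170548 in the list did.

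The octamer ATTTGCAT was found in 1 region, beside 2.01% of the list, at the start of Ypel3. The SOX letters were found in 2, beside 1.21%. They were the TSS region of Tbx6 and the 130 bp region 12.4 kb downstream of Mesp1, which lay in an intron of Wdr93 and was the narrowest in the windows. These counts are near the background shares, and nothing particular to the members was read from them.

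The letters of the streak signals were as rare in the central 200 bp. FOXH1 was found in 1 region beside 1.58% of the list, in an intron of Lin9 49.0 kb downstream of Mixl1. TCF/LEF was found in 1 beside 3.52%, T-box in 1 beside 1.16%, both in the Tbx6 window 32.5 and 8 kb upstream of its TSS. The GATA factor element, spelled AGATAAG, was found in 2 beside 2.45%, and the CTCF core (CCANNAGGG) in 4 beside 5.23%. At least 1 of the 7 exact motifs was present in 12 of 65 regions, beside 16.1% of the list.

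Over the whole length of the TSS regions, beyond their central 200 bp, more matches appeared in the 6 genes. TCF/LEF was present in 3 of the 6, Mixl1, Tbx6 and Mesp1, beside 8.62% of the TSS regions of protein-coding genes. FOXH1 was present in 2, Mixl1 and Mesp2, beside 4.02%, and T-box in 2, Mesp1 and Mesp2, beside 3.42%. SOX was present in 1, Tbx6, beside 2.39%. The octamer was present in 0 of 6 beside 3.31%, GATA in 1, Tbx6, beside 6.20%, and CTCF in 2, Mesp1 and Mesp2, beside 22.2%. The Gsc and Lhx1 regions, the widest of the 6, held none of the 7 motifs. In Mixl1 the FOXH1 match lay 243 bp upstream of the TSS and the TCF/LEF matches 59 and 414 bp upstream, so that all 3 fell in the part of the region that lies before the gene. The counts rest on 6 regions and on short letters, and a match says only that these letters are there.

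Other genes of the primitive streak, mesoderm and endoderm gave a similar picture. Of 23 such genes, 20 had a region within 1 kb of a TSS and 15 one that overlapped the 5′ end, and 18 of these 20 TSS regions were CpG-rich, beside the 67.6% given above. Those without a region were Cer1, which encodes a secreted Nodal antagonist, Hes7, a repressor of the segmentation clock, and Meox1, a homeobox gene of the somites. The median TSS region was 1280 bp wide in the 20 genes that had one, in a range of 459 to 2685 bp, and 1290 bp in the 6 members. The widest 3 were those of Foxc1 with 2685 bp, Dll1 with 2229 bp and Sox17 with 2156 bp, each wider than any member's. Regions per window had a median of 14, from 7 in Dll1 to 23 in Wnt3, beside 12.5 in the members. The most were in Wnt3 with 23, Wnt3a with 22, and Snai1 and Dll3 with 20 each, as many as in Tbx6.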

How the data were processed

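ATAC-seq libraries of ZHBTc4 and 2TS22C cells were processed by the authors before deposit. Reads were aligned to mm10 (GRCm38) with STAR 2.6.1c, duplicates were removed with Picard, peaks were called with MACS2 2.1.1.20160309 on paired-end fragments, and the peaks of all experiments were merged with bedtools. The deposited values are start and end positions of the 170548 merged regions in bp, with no score and no read count, and 0 columns belong to a single sample. Depth per library is unknown. Whether peaks were called per replicate, and whether published libraries of these lines were merged too, is not given in the sources used here. The methods go on to drop peaks above 5 kb and those found in Input or on a blacklist, yet 16 merged regions, 0 of them in the windows, exceed 5 kb. The list, and with it every background share, may therefore be unfiltered, and overlap with Input or blacklisted peaks was not checked.

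Regions were joined to the GENCODE M21 genes and the GRCm38 sequence, with coordinates counted from 1, using Python 3.11.15, numpy 2.4.6, pandas 2.3.3 and scipy 1.17.1. A region belonged to a window with an overlap of 1 bp. Percentiles of region counts, bp covered and body coverage are ranks among 21938 protein-coding genes unless a smaller set is named, with ties counted at their middle. Those of TSS regions are ranks among the 16381 genes that have one, and those of gaps among 16372 genes upstream and 16381 downstream. Promoter percentiles are among the 32817 promoters. Distance and motif functions were tested on simulated data. Named genes were the 6 members, neighbours with a region within 1 kb of their TSS, and from a list of 23 streak, mesoderm and endoderm genes those without a TSS region, with the widest 3 or with the most regions. The members, lists and windows were chosen with earlier results of these data known.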

Additional observations from a re-analysis of the deposited data

How the results depend on the processing

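The number of regions in the windows was 33 with 20 kb to either side of the genes and 130 with 100 kb, beside 65 with 50 kb. The median percentile of the 6 region counts, 43.6 as reported, was 49.0 with 100 kb and 71.4 when bp covered per kb of window replaced the number of regions. A stricter CpG limit, a ratio of 0.75 with GC of 55%, left 8 CpG-rich regions of 17. The share of the list under that limit was not computed. Regions with a motif match numbered 20 of 65 in place of 12 when the whole region was searched, where 30.5% of the list had one. The OCT4::SOX2 composite was in 0 regions with at most 1 mismatch and in 2 with at most 3, where 3.40% of the list held it. Of the 24 alternatives for the main counts, shares and medians, the other 16 stayed within 1.5 times the count or within the interval or quartiles of the value. The distal share ran from 47.7% with the edge in place of the center to 68.9% without the Tbx6 window, an alternative chosen after seeing the data, as was the joining of regions near the TSSs. No paired analysis was possible because replicates were pooled into merged positions, and for the same reason no library could be left out in turn. Merged positions alone cannot show which condition a region was open in.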
